A study of Arabidopsis thaliana with 6 samples.

Results

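Expansins and xyloglucan endotransglucosylase/hydrolases (XTHs) are the wall-loosening and wall-remodelling proteins of growing plant cells, and 45 of their genes were followed here by locus in RNA-seq of Arabidopsis thaliana inflorescence meristems. The set holds 19 alpha-expansins (EXPA), 2 beta-expansins (EXPB), 4 expansin-like genes (EXLA and EXLB) and 20 XTH genes, out of 32833 loci counted. Each locus was found once in each table and carries the name used here as a symbol or synonym in the TAIR10.1 annotation.

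The study compared 3 control libraries, genotype pCLV3>>erTurquoise, with 3 libraries labelled VGD1, genotype pCLV3>>erTurquoise, >>VGD1. Both groups carried the stem-cell reporter driven by the CLV3 promoter through GR-LhG4, a dexamethasone-gated transcription factor, and both were sprayed with dexamethasone, so by their labels the groups differ in the added VGD1 transgene. VGD1 is a pectin methylesterase, an enzyme that takes methyl groups off wall pectin, and the comparison asks what its expression in the stem cells does across the meristem. Plants were grown in 16 h light, and meristems were dissected from stems 15 cm tall after flower primordia had been removed up to an early stage. Harvest came 48 or 72 hours after induction and the spray held 30 µM or 30 mM dexamethasone, since the labels state both of each. Nothing in them ties a replicate to its own batch of plants, and each p-value therefore reflects the spread among these 6 libraries, which may be technical.

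Expansins loosen the wall at low pH without cutting its polymers, by acting where cellulose and matrix glycans are in contact. Alpha-expansins are the class best known for acid-induced growth, beta-expansins form a sister class, and the expansin-like proteins share the fold but have no established loosening activity. XTH enzymes cut a xyloglucan chain, the main glycan that coats cellulose in the primary wall of this plant, and join the cut end to another xyloglucan chain or, in a few members, to water. At the shoot tip, expansins are known for their part in the outgrowth of organ primordia.

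Total counts lay between 18432365 and 24437872 in 5 libraries and at 6638772 in control replicate 3, where a count of 0 allows up to 0.452 CPM, counts scaled to the size of the library, as against 0.123 to 0.163 CPM in the others (3 counts; counting error only). The row of VGD1 itself holds the plant's own copy, and also the transgene if its reads were counted there. It stood at 11.4, 12.7 and 4.80 CPM in controls and 6.59, 7.91 and 7.11 CPM in the second group (edgeR quasi-likelihood test, adjusted p = 0.372). As it does not mark the second group, that group is called the libraries labelled VGD1. Of 9 meristem markers 8 were tested. The 9 together summed to 490 to 552 CPM in controls and 571 to 614 CPM in the libraries labelled VGD1. CLV3, which was not tested, had no count in any control and 3, 8 and 11 counts in replicates 1, 2 and 3 labelled VGD1. Mean levels of marker lists for other tissue were lower in the libraries labelled VGD1, with no marker called in the edgeR test. The 13 tapetum and anther genes summed to 1473 to 1664 CPM in controls and to 1439, 467 and 736 CPM in replicates 1, 2 and 3 labelled VGD1. The 14 vascular and secondary-wall genes summed to 340 to 473 CPM and to 215 to 350 CPM, and the 14 photosynthesis genes to 19760 to 26460 CPM and to 17790 to 20970 CPM, with every marker on these 3 lists detected in all 6 libraries. Their part in the results below was not tested, and in whole-tissue RNA fewer cells of a type and less RNA per cell cannot be told apart.

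Sequence shows how close the XTH members that carry the results are. The 36 coding bases over the active site, which hold the family's conserved catalytic residues, are given for the XTH genes whose values are described per library below, each read on the coding strand from the RefSeq TAIR10.1 genome. Capitals mark the bases at which a gene differs from XTH9.
XTH9: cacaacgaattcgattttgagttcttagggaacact
XTH4: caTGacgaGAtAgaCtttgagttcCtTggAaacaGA
XTH6: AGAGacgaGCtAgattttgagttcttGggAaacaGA
XTH16: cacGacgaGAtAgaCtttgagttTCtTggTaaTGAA
XTH22: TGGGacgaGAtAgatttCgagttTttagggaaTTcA
XTH25: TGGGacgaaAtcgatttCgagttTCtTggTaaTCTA
XTH28: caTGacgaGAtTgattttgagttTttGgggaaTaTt
XTH19: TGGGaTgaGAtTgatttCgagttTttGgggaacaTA
Over these 36 bases the genes differ from XTH9 by 9 bases (XTH28) to 14 bases (XTH25). Along whole transcripts, 4 of the 45 genes share an identical run of at least 50 bases with another gene of the families. They are the neighbours XTH18 and XTH19, with 68 bases, and EXLA1 and EXLA3, with 57 bases. The run common to XTH18 and XTH19 is shown because reads within it cannot be assigned to either gene.
XTH18 and XTH19: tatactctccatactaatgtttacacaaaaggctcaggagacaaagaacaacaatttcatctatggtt
The sources used here give neither the read length nor how the authors' counting treated such reads, so the values of these 4 genes are less certain than the rest.

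Most of the set was detected in the dissected tissue, but a few genes made up most of its summed level. The cells that expressed them cannot be told from these libraries. Of the 45 genes, 36 passed the filter on low counts and were tested. On the scale of CPM per kb of exon, which allows levels of different genes to be compared, the 5 highest genes held 62.2% of the summed level of the 45 and the 10 highest held 83.3% (means of 6 libraries). XTH genes made up 56.6% ± 1.06 (SD, n = 3) of the sum in controls and 61.2% ± 4.19 in the libraries labelled VGD1, alpha-expansins 33.1% ± 1.67 and 29.5% ± 4.09, and beta-expansins 8.32% ± 0.31 and 7.31% ± 1.03.

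XTH9 (AT4G03210), known for its expression in inflorescence apices, was the highest of all at 559 CPM per kb on average, with libraries from 442 to 713. It alone held 28.1% of the summed level of the 45 genes and 47.8% of that of the XTH genes. EXPA6 (AT2G28950) came next at 235 CPM per kb, and its lowest library, 207, lay above the highest library of the third gene, XTH22, at 185. XTH9's lowest library lay above EXPA6's highest, 259, and XTH16's highest, 264, so first place did not depend on the library. Second place did, as XTH16 at 264 in replicate 2 labelled VGD1 lay above every library of EXPA6. Below EXPA6, neighbours in the order of means often overlapped. XTH22, EXPB3 and XTH16 averaged 153, 146 and 143 CPM per kb with overlapping libraries, as did EXPA15, XTH6 and XTH4 at 108, 98.8 and 86.3, and EXPA4 and EXPA1 at 64.4 and 57.9. Between these groups of neighbours some steps held in all libraries, as EXPB3's lowest library, 128, lay above the highest of EXPA15 and of XTH6, both at 121, and the lowest libraries of EXPA15 and XTH6, 89.6 and 81.2, lay above EXPA4's highest, 71.7.

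**Figure D1:**
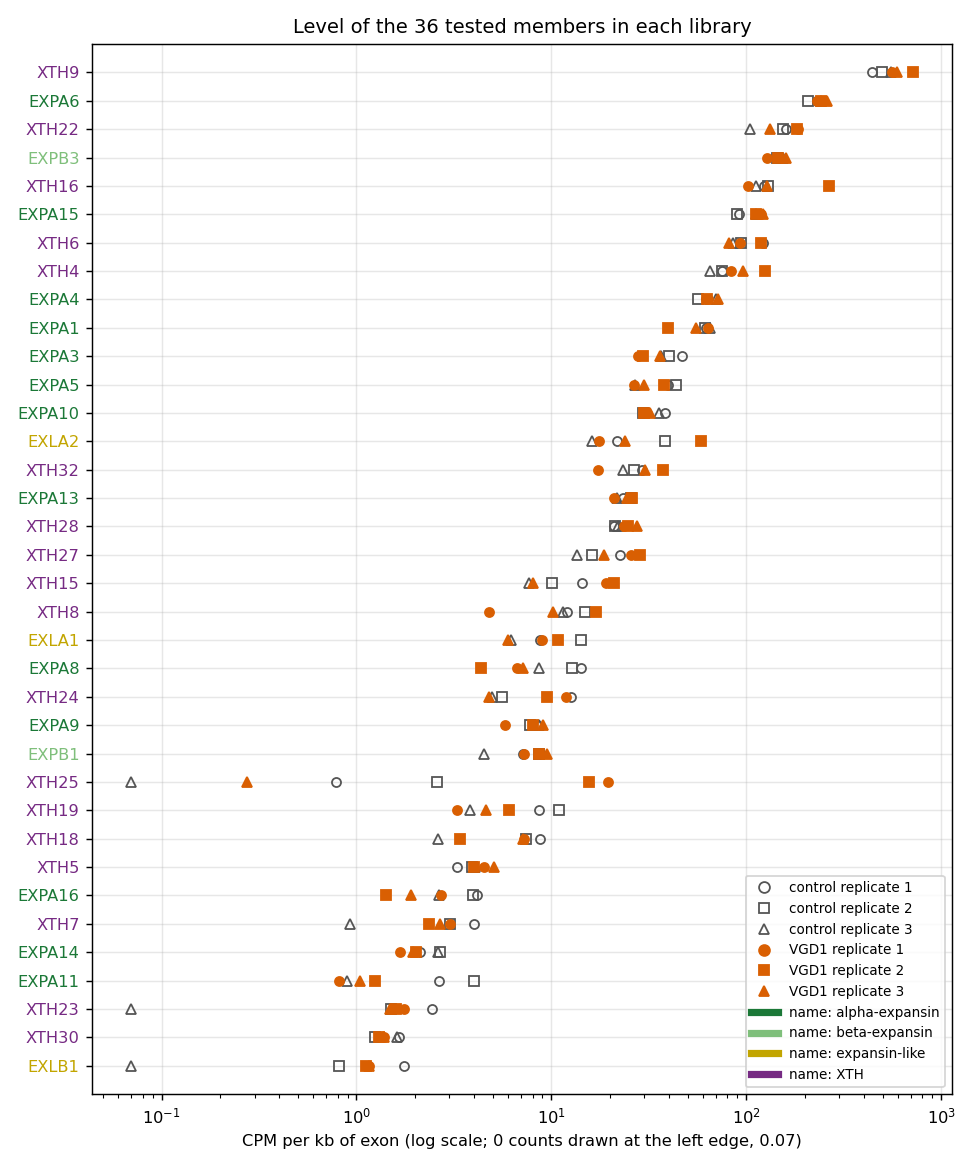
Level of the 36 tested genes in each library, in CPM per kb of exon on a log axis, ordered by the mean of 6 libraries; open grey symbols are controls, filled orange symbols are libraries labelled VGD1, and libraries with 0 counts are drawn at the left edge. XTH9 lies above every other gene in all 6 libraries, and XTH25 ranges from 0 to 19.4 CPM per kb.

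Beta-expansins and expansin-like genes were each carried by 1 gene, and alpha-expansins by several. EXPB3 held 95.1% of the beta-expansin level and EXPB1 4.95%. EXLA2 held 72.1% of the expansin-like level and EXLA1 24.5%. Among alpha-expansins EXPA6 held 38.2% and EXPA15 17.5%, followed by EXPA4 at 10.5%, EXPA1 at 9.40%, EXPA3 at 5.86%, EXPA5 at 5.56%, EXPA10 at 5.31% and EXPA13 at 3.85%. EXPA9, EXPA16, EXPA14 and EXPA11 averaged 7.94, 2.80, 2.18 and 1.77 CPM per kb.

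The 9 genes under the filter include those known from roots and seeds. EXPA7 and EXPA18, the root-hair expansins, had 2 counts and 0 counts over all 6 libraries. EXPA12 and EXPA17 also had no count in any library, and EXPA2, known from germinating seeds, had 4 counts, all in control replicate 2. EXPA20 had 1 to 7 counts a library. EXLA3 had 0 to 23 counts, XTH33, which encodes an XTH with a membrane anchor, had 0 to 13, and XTH31, of the XTH clade with hydrolase activity, had 0 to 10. EXPA2, EXPA7, EXPA18 and EXPA20 overlap a gene on the other strand, as do EXLA1 and XTH15 among the tested genes. Without a known strand setting, reads of the overlapping partners cannot be told apart.

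In the comparison of the 2 groups, no expansin or XTH gene passed an adjusted p of 0.05 in the edgeR quasi-likelihood test over 19719 genes, where 0.416% of all genes did (0.101% higher and 0.314% lower). An unadjusted p under 0.05 was reached by 9 of the 36 (25.0%), as against 13.6% of all genes tested. Of these 9, 4 were above the controls (XTH4, XTH9, XTH28 and EXPA15) and 5 below (EXPA8, EXPA11, EXPA3, EXPA16 and XTH19), where 5.21% and 8.36% of all genes were. The groups did not overlap for 6 genes (16.7%), close to the 17.2% of all genes tested. These were 3 genes above and 3 below the controls, where 8.2% and 9.0% of all genes were. DESeq2, which called 424 genes in all, called EXPA8 and XTH4, and limma-voom called none of the 36. Median log2 fold changes were -0.0168 for the 36 genes and -0.0004 for all genes tested.

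**Figure D2:**
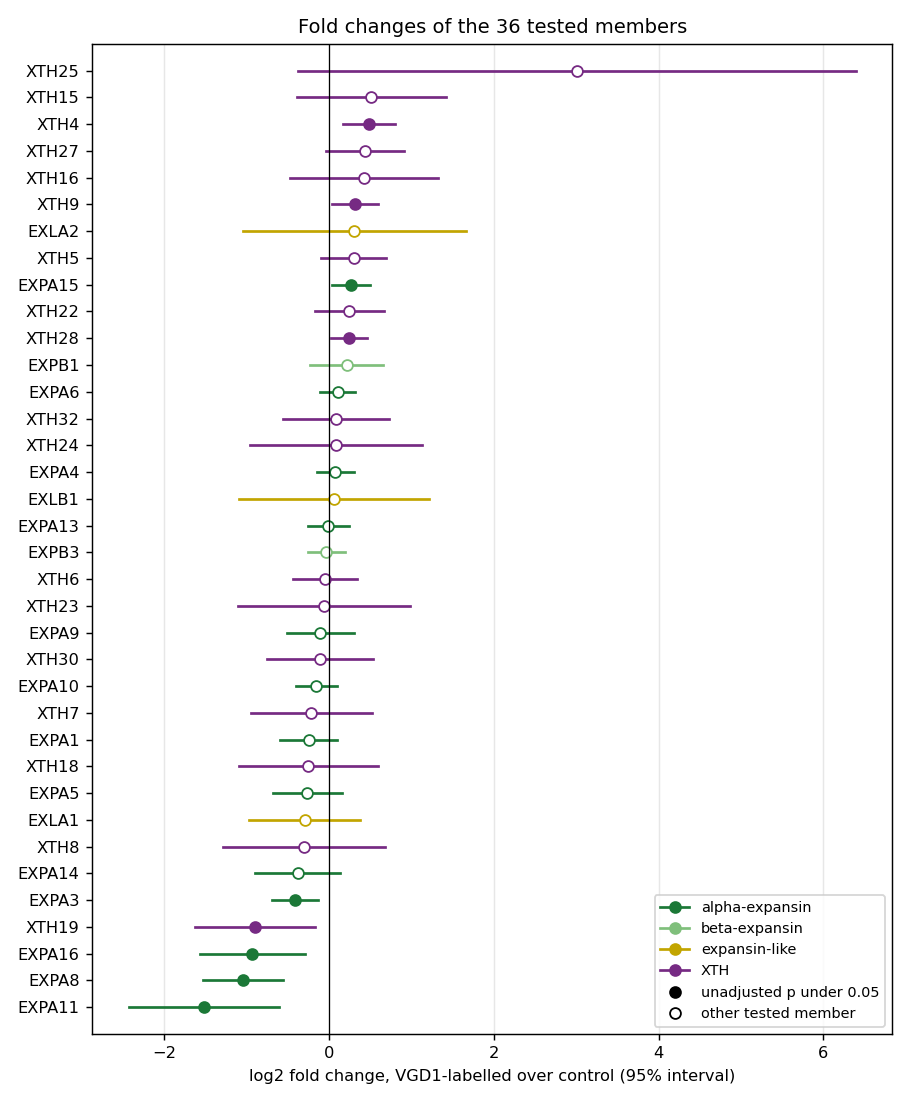
Log2 fold change of each of the 36 tested genes, libraries labelled VGD1 over controls, with the 95% interval from the edgeR fit; filled points have an unadjusted p under 0.05 and colours give the class. Of the 13 alpha-expansins 10 lie below 0 and of the 18 XTH genes 11 lie above 0, and XTH25 has both the largest value and the widest interval.

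The alpha-expansins lay mostly below 0 and the XTH genes more often above. Of 13 tested alpha-expansins 10 had a log2 fold change below 0 (median -0.25), and of 18 tested XTH genes 11 had one above 0 (median 0.17). Among all genes tested, 50.1% lay below 0. The difference between the classes was not tested. Over 14 alternative settings the alpha-expansin median stayed between -0.31 and -0.13, and the XTH median between 0.042 and 0.27. It was 0.057 without control replicate 3 and 0.042 without replicate 2 labelled VGD1. In the same settings 8 to 12 alpha-expansins lay below 0 and 10 to 16 XTH genes above, with more genes tested when no filter was used.

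Summed over a class, levels are set by its most expressed genes. The XTH genes together stood at 1062, 1075 and 1017 CPM per kb in controls and at 1162, 1575 and 1151 CPM per kb in the libraries labelled VGD1. Every library labelled VGD1 lay above every control, with replicate 2 far above the rest, and XTH9 alone made up close to the same share of this sum in both groups (47.5% ± 6.46 and 48.2% ± 3.11, SD, n = 3). The alpha-expansins together stood at 627, 584 and 634 CPM per kb in controls and 602, 596 and 651 CPM per kb in the other group, which overlap. The 3 alpha-expansins of the highest level, EXPA6, EXPA15 and EXPA4, were also the 3 with a log2 fold change above 0. Level here is the mean over all libraries, so it holds the values that set the fold change. In controls alone EXPA4 and EXPA1 stood at 62.9 and 62.8 CPM per kb.

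**Figure D3:**
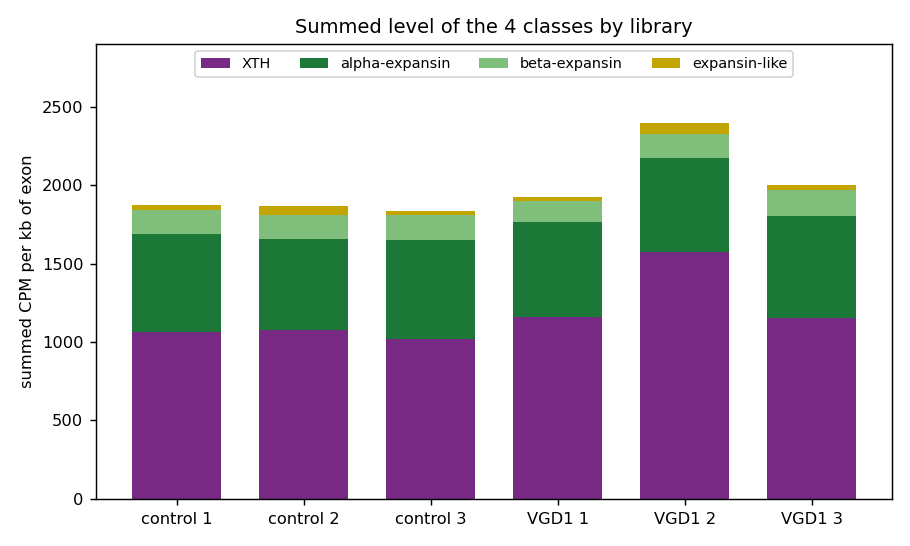
Summed level of each class in each library, in CPM per kb of exon, stacked from 0. The XTH part reaches 1575 in replicate 2 labelled VGD1, while the alpha-expansin part stays between 584 and 651 in all 6 libraries.

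EXPA8 (AT2G40610) was the gene nearest to the threshold. This alpha-expansin stood at 18.9, 16.9 and 11.4 CPM in control replicates 1 to 3 and at 8.83, 5.78 and 9.48 CPM in replicates 1 to 3 labelled VGD1. The groups did not overlap, and control replicate 3 was the closest to the other group. The log2 fold change was -1.04 (SE 0.22, edgeR adjusted p = 0.0877), with a 95% interval from -1.53 to -0.55. It was called without control replicate 3 (adjusted p = 0.0445) and in DESeq2 (adjusted p = 0.0120), and its adjusted p ranged up to 0.414 over the alternatives. In replicates 1, 2 and 3 labelled VGD1 the tapetum markers summed to 1439, 467 and 736 CPM. Among these replicates, replicate 2 was the lowest in EXPA8 and in these markers. Replicate 3 was the highest in EXPA8, and replicate 1 in these markers. The vascular and photosynthesis markers were lowest in replicate 1. The part of these lists in the difference was not tested.

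3 further alpha-expansins stood lower with an unadjusted p under 0.05. EXPA3 (AT2G37640) had 83.1, 71.4 and 65.0 CPM in controls and 49.5, 52.8 and 64.2 CPM in the libraries labelled VGD1, and its groups nearly touched. Its log2 fold change was -0.41 (SE 0.12, edgeR adjusted p = 0.204), and its unadjusted p stayed under 0.05 in all 14 alternatives. EXPA16 (AT3G55500) had 5.22, 4.96 and 3.30 CPM in controls and 3.39, 1.77 and 2.37 CPM in the other group, where replicate 1 lay just above control replicate 3. EXPA11 (AT1G20190) had 3.54, 5.38 and 1.20 CPM in controls and 1.10, 1.67 and 1.40 CPM in the other group, so the difference came from control replicates 1 and 2 alone. Log2 fold changes were -0.93 (SE 0.29) and -1.52 (SE 0.41) with edgeR adjusted p-values of 0.210 and 0.166.

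EXPA14 (AT5G56320) was the remaining gene with groups that did not overlap in this direction. It had 3.63, 4.55 and 4.50 CPM in controls and 2.84, 3.44 and 3.34 CPM in the libraries labelled VGD1, at a log2 fold change of -0.38 (SE 0.23, edgeR adjusted p = 0.528). EXPA1 (AT1G69530), an alpha-expansin of leaf growth and stomatal movement, had 95.8, 95.3 and 101 CPM in controls and 99.0, 61.1 and 85.5 CPM in the other group. Its lower mean rested on replicate 2 labelled VGD1, and the groups overlapped (log2 fold change -0.25, SE 0.16, edgeR adjusted p = 0.546).

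EXPA6, EXPA15 and EXPA4, the alpha-expansins of the highest mean level over all libraries, did not stand lower. EXPA1, close to EXPA4 in controls, had a lower mean (log2 fold change -0.25) with overlapping groups. EXPA6 had 368, 328 and 384 CPM in controls and 368, 385 and 412 CPM in the libraries labelled VGD1, with a log2 fold change of 0.11 and a 95% interval from -0.10 to 0.32. EXPA4 (AT2G39700) had 92.8, 85.0 and 105 CPM and 95.2, 94.2 and 107 CPM, with an interval from -0.15 to 0.31. EXPA15 (AT2G03090) had 132, 129 and 162 CPM in controls and 170, 160 and 174 CPM in the other group. Control replicate 3 lay within the range of the libraries labelled VGD1, and the log2 fold change was 0.27 (SE 0.10, edgeR adjusted p = 0.292). EXPB3 (AT4G28250), the beta-expansin that carried its class, had 303, 301 and 323 CPM and 268, 305 and 334 CPM, with a 95% interval of the log2 fold change from -0.25 to 0.19.

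**Figure D4:**
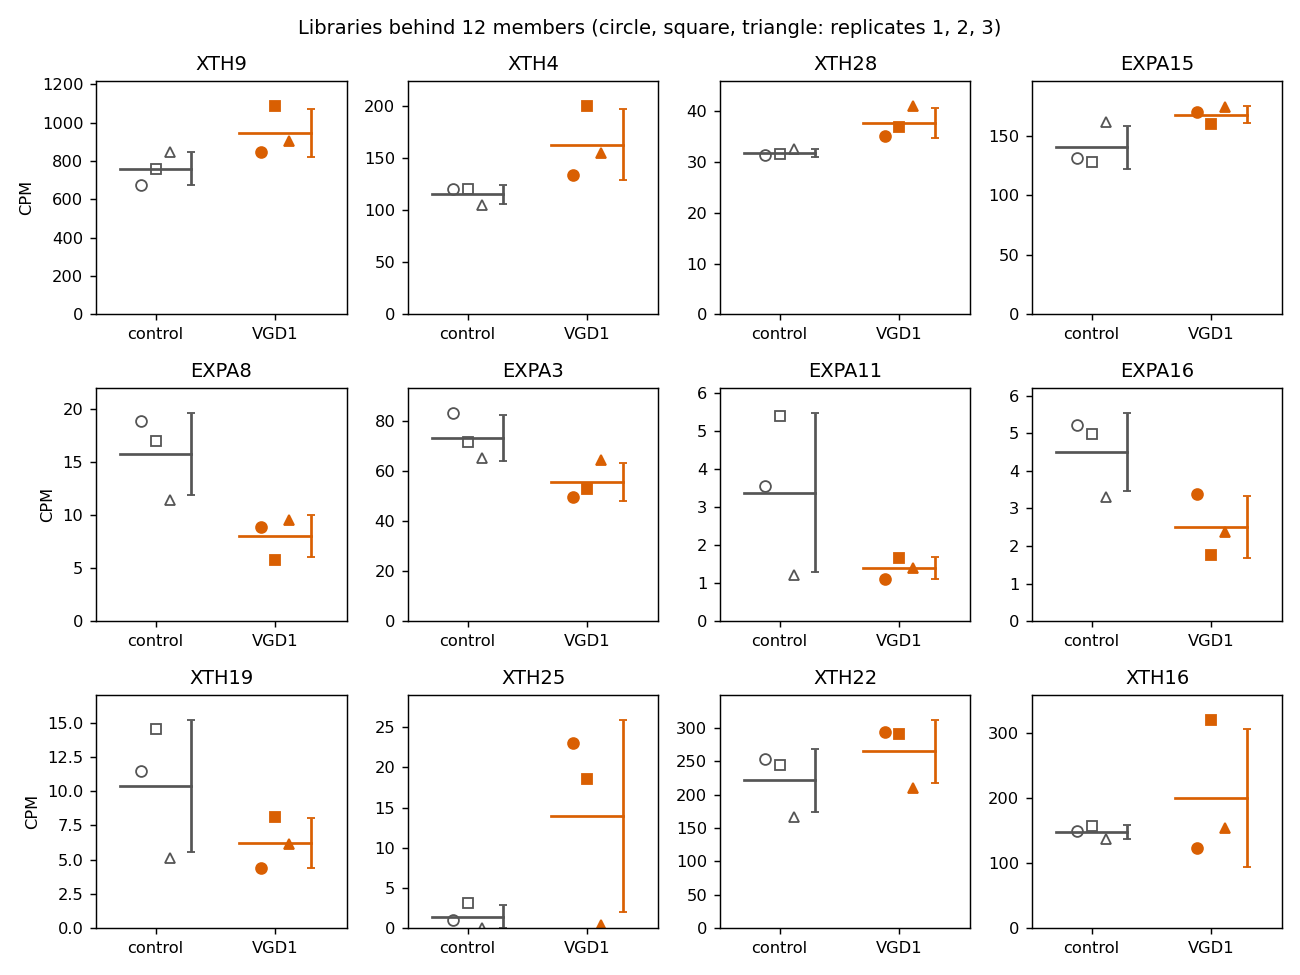
CPM of 12 genes in each library, each panel with its own axis from 0; circles, squares and triangles are replicates 1, 2 and 3, lines are group means and bars are SD with n = 3, cut at 0. The groups separate for XTH9, XTH4, XTH28, EXPA8 and EXPA3, while in XTH25 and XTH16 the mean of the libraries labelled VGD1 rests on 2 libraries and 1 library.

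Among XTH genes, XTH9, XTH4 and XTH28 had every library labelled VGD1 above every control. XTH9 had 675, 761 and 845 CPM in controls and 849, 1087 and 903 CPM in the other group, and control replicate 3 nearly reached replicate 1 labelled VGD1. Its log2 fold change was 0.32 (SE 0.13, edgeR adjusted p = 0.304). XTH4 (AT2G06850), which acts with XTH9 in the secondary growth of stems, had 121, 121 and 105 CPM in controls and 134, 200 and 156 CPM in the other group. The log2 fold change was 0.49 (SE 0.14, unadjusted p = 0.00629, edgeR adjusted p = 0.188). DESeq2 called XTH4 (adjusted p = 0.0458), as did edgeR once replicate 1 of the second group was left out (adjusted p = 0.0473), and over the alternatives the adjusted p ranged up to 0.565. XTH28 (AT1G14720), known for its part in stamen growth, had 31.3, 31.5 and 32.7 CPM and 35.2, 36.9 and 41.0 CPM, at a log2 fold change of 0.25 (SE 0.10, edgeR adjusted p = 0.311). The vascular markers summed to 404, 473 and 340 CPM in control replicates 1, 2 and 3. In replicates 1, 2 and 3 labelled VGD1 they summed to 215, 350 and 267 CPM, which overlaps the controls. Their part in the values of these XTH genes was not tested.

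XTH25 (AT5G57550) had the highest log2 fold change above 0 of all 19719 genes tested and was not called. Values below 0 reached -8.37 over all genes. It had 0.930, 3.06 and 0 CPM in controls and 23.0, 18.5 and 0.323 CPM in the libraries labelled VGD1. Replicates 1 and 2 labelled VGD1 were high, while replicate 3 was as low as the controls. The log2 fold change was 3.01 (SE 1.34, 95% interval -0.38 to 6.40, edgeR adjusted p = 0.422). With the replicate number as a block the edgeR adjusted p was 0.0276, although no pairing of the libraries by number was shown. XTH25 lies beside XTH22 on chromosome 5.

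XTH22 (AT5G57560), also named TCH4 for its induction by touch, had 253, 245 and 167 CPM in controls and 294, 290 and 210 CPM in the libraries labelled VGD1. Replicate 3 was the lowest of each group, the groups overlapped, and the log2 fold change was 0.25 (SE 0.18, edgeR adjusted p = 0.619). In both neighbours replicates 1 and 2 labelled VGD1 were the highest libraries, by a small margin in XTH22 and a large one in XTH25.

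XTH16 (AT3G23730) showed how much 1 library could weigh. It had 150, 157 and 137 CPM in controls and 124, 321 and 154 CPM in the libraries labelled VGD1, so 2 of the latter lay among or below the controls. The log2 fold change was 0.43 (SE 0.36, edgeR adjusted p = 0.687) and turned to -0.082 without replicate 2 labelled VGD1. XTH6 (AT5G65730) had 178, 138 and 125 CPM and 136, 175 and 119 CPM, with no separation of the groups (log2 fold change -0.05, SE 0.17). XTH19 (AT4G30290), known mainly from roots, had 11.5, 14.6 and 5.09 CPM in controls and 4.39, 8.12 and 6.14 CPM in the other group, at a log2 fold change of -0.89 (SE 0.32, edgeR adjusted p = 0.273). Control replicate 3 again lay among the libraries labelled VGD1. Its neighbour XTH18 (AT4G30280), with which it shares the run shown above, stood at 7.89 ± 4.08 CPM in controls and 7.48 ± 2.79 CPM in the other group (SD, n = 3).

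The groups overlapped for the other 9 tested XTH genes. XTH32 (AT2G36870), of the hydrolase clade, stood at 50.6 ± 5.71 and 54.4 ± 19.6 CPM (controls first, SD, n = 3), and XTH27 (AT2G01850), known from leaf vein development, at 26.9 ± 7.15 and 37.5 ± 7.96 CPM. XTH8 stood at 15.5 ± 2.19 and 12.9 ± 7.40 CPM, and XTH15 at 12.9 ± 4.02 and 19.4 ± 8.40 CPM. XTH24 (AT4G30270), first named MERI5, stood at 9.34 ± 5.12 and 10.6 ± 4.35 CPM. XTH5, XTH7, XTH23 and XTH30 all stood under 10 CPM in both group means, from 1.81 CPM (XTH23, controls) to 8.73 CPM (XTH5, libraries labelled VGD1). In XTH23, control replicate 3 had no count.

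Expansins outside the named genes overlapped as well. EXPA5 (AT3G29030), which takes part in growth driven by brassinosteroids, stood at 52.4 ± 12.4 and 44.8 ± 8.16 CPM, EXPA10 at 54.2 ± 7.31 and 48.7 ± 1.74 CPM, EXPA13 at 34.0 ± 2.64 and 34.2 ± 3.72 CPM and EXPA9 at 11.2 ± 0.60 and 10.4 ± 2.28 CPM (SD, n = 3). EXLA2 (AT4G38400) stood at 28.7 ± 13.0 and 37.5 ± 24.8 CPM, with 65.8 CPM in replicate 2 labelled VGD1 and 19.8 and 26.8 CPM in the other two. EXLA1, EXPB1 and EXLB1 stood at 10.4, 10.3 and 0.953 CPM in controls and 9.10, 12.9 and 1.28 CPM in the other group.

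Single libraries stood out within both classes. Of the 18 tested XTH genes, 7 had their highest value in replicate 2 labelled VGD1 (38.9%, as against 13.9% of all genes tested), and none had its lowest there. Control replicate 1 held the highest value of 6 XTH genes (33.3%, as against 15.0% of all genes) and of 11 of all 36 genes (30.6%), more than any other library. Control replicate 3 held the lowest value of 8 XTH genes (44.4%, as against 21.3% of all genes) and the highest of none. Replicate 1 labelled VGD1 held the lowest value of 6 of 13 alpha-expansins (46.2%, as against 22.8% of all genes). The 36 genes had a median coefficient of variation of 16.8% in controls and 19.1% in the libraries labelled VGD1, and the medians over all genes tested were 11.2% and 11.6%.

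**Figure D5:**
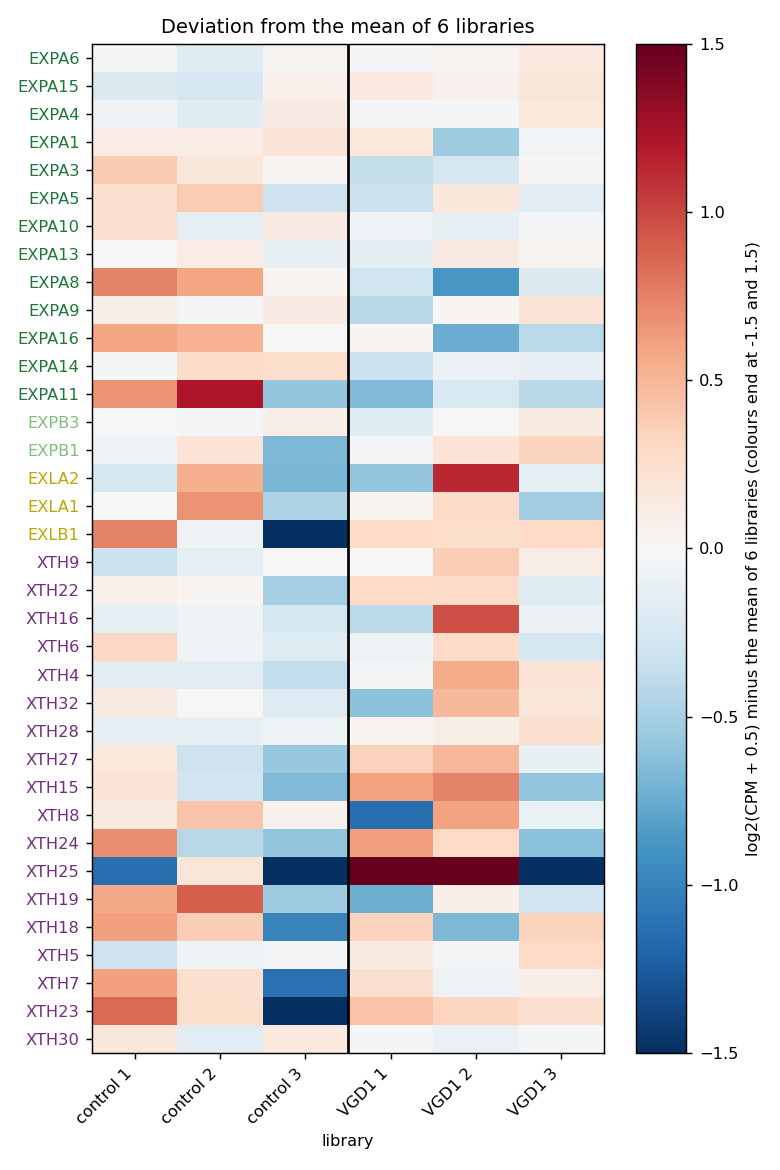
Deviation of each tested gene in each library from its mean over 6 libraries, as log2(CPM + 0.5), with genes grouped by class (alpha-expansins in dark green, beta-expansins in light green, expansin-like genes in yellow, XTH genes in purple); red is above the mean, blue below, and colours end at -1.5 and 1.5. In replicate 2 labelled VGD1 most XTH genes are red, and in control replicate 3 many XTH genes are blue.

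Genes that make, trim or acidify the substrate of these proteins gave no call either. Of 7 genes of xyloglucan synthesis none had an unadjusted p under 0.05, and their median log2 fold change was -0.0037. The backbone synthase gene CSLC4 and the xylosyltransferase genes XXT1 and XXT2 stood at 47.9, 103 and 150 CPM in controls and 47.7, 111 and 150 CPM in the libraries labelled VGD1. The 3 genes of xyloglucan trimming all had values below 0 (median -0.23). XYL1, an alpha-xylosidase, stood at 534 ± 56.0 and 455 ± 39.5 CPM, BGAL10, a beta-galactosidase, at 87.0 ± 13.7 and 73.2 ± 11.1 CPM, and AXY8, a fucosidase, at 90.7 ± 9.06 and 77.2 ± 6.28 CPM, of which AXY8 alone had an unadjusted p under 0.05 (0.0386, edgeR adjusted p = 0.334). Of 11 genes for plasma membrane proton pumps, which acidify the wall and so set the pH at which expansins work, 10 were tested, with a median of -0.0033. AHA3 had the smallest p, at 94.0 ± 21.2 and 71.1 ± 3.83 CPM (edgeR adjusted p = 0.254). Of 16 further beta-expansin and XTH genes outside the set, 6 had no count in any library and 3 were tested, none called.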

How the data were processed

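Values are raw read counts at 32833 loci, deposited by the authors as 1 table for each of 6 libraries. RNA STAR did the alignment, per the file headers, and the submitters' processing notes name TAIR10 and DESeq2 without versions or roles. Sources used here do not give the counting tool, its annotation or its strand setting. Sample titles gave the groups and replicate numbers, and no library was left out. Symbols, exon lengths, overlaps and sequences came from RefSeq's TAIR10.1, whose build name differs from the one in the notes, so no coordinates are given.

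Genes were tested with edgeR 4.0.16 in R 4.3.3, using TMM factors, filterByExpr (minimum count 10, minimum total 15), robust glmQLFit, the two-sided quasi-likelihood F test and Benjamini-Hochberg adjustment over 19719 genes at 0.05. CPM carry the TMM factors. Standard errors came from the log2 fold change and its F statistic, with 95% intervals from the t distribution. The step was tested on simulated data. Alternatives were RLE factors, library totals, no filter, 1 CPM in 3 libraries, DESeq2 1.42.0, limma-voom (limma 3.58.1), thinning to the shallowest library, the replicate number as a block and leaving out each library.

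Values per library are given for the 10 genes of highest CPM per kb, those with an unadjusted p under 0.05, those of at least 1 CPM whose groups do not overlap, the 5 largest log2 fold changes, and XTH22, XTH9 and EXPA1. The genes, lists and rules were chosen with earlier results of these data known. Active-site stretches are the best match to the XTH motif in each translated coding sequence, and identical runs were sought between spliced transcripts of the 45 genes and 16 relatives on the same strand.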

Additional observations from a re-analysis of the deposited data

How the results depend on the processing

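The count of 82 genes called over all genes was 139 without the filter, 424 in DESeq2, 45 in limma-voom, 28 after thinning and 194 with the replicate block, and 4 to 202 when 1 library was left out. Of the 36 expansin and XTH genes tested, 0 were called in the edgeR test, 2 in DESeq2 (EXPA8 and XTH4) and 1 with the replicate block (XTH25), and 0 to 1 when 1 library was left out, namely EXPA8 without control replicate 3 and XTH4 without replicate 1 labelled VGD1. The causes were not tested. Unadjusted edgeR p-values under 0.05 were reached by 9 genes, by 7 after thinning and by 6 to 10 when 1 library was left out. With the replicate block 13 genes reached it, 8 above the controls and 5 below, as against 4 and 5 in the main fit. Directions turned for 3 genes whose values lie near 0 or rest on 1 library: EXPB3 (-0.03, and 0.0005 with library totals), XTH6 and XTH16. With 1 library left out, log2 fold changes ran from -0.11 to 0.052 for EXPB3, from -0.20 to 0.13 for XTH6 and from -0.082 to 0.68 for XTH16. The other 15 named genes kept their direction in all 14 alternatives. No pairing of the libraries by replicate number was shown. Correlations of same-numbered deviations were -0.01034, 0.03251 and 0.0948, and those of differently numbered ones ran from -0.0918 to 0.0592. With 3 libraries per group these values cannot exclude a pairing. A call under the block is therefore not read as a stronger effect. Depth limits genes under about 5 CPM most, above all in control replicate 3.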

Other observations

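Outside the 45 genes, 2 genes of the lists used here were found almost only in control replicate 1. XTH3 stood at 35.3 CPM there, at 0.0827 and 0 CPM in control replicates 2 and 3, and at 0, 2.39 and 0.539 CPM in the libraries labelled VGD1. AHA6, a proton pump gene, stood at 5.49 CPM in control replicate 1 and had no count in any other library. These genes were singled out after their values were seen, and no test bears on them.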
